A study of Rattus norvegicus with 16 samples.

Results

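The 9 axon growth and growth cone genes Gap43, Sprr1a, Stmn2, Stmn4, Tubb2b, Tubb3, Basp1, Marcks and Dpysl3 were followed across 6 groups of dorsal root ganglia (DRG). They were chosen by name, with earlier results of these data known, and not by a threshold on their values. Each Affy_ID annotated to one of them alone was taken. An Affy_ID is a probe set of the array, and these genes had 19 of the 31042 Affy_IDs tested. L4/L5 DRG of Sprague-Dawley rats were collected 7 days after surgery and their RNA was hybridised to 16 Affymetrix rat genome arrays. In spared nerve injury (SNI) the tibial and common peroneal branches of the sciatic nerve were tied and cut while the sural branch was kept, so the ganglia held injured and spared neurons together. In sham surgery the nerve was exposed only. Adult rats were males of 2 months and gave 3 arrays of the SNI side, 3 of the side contralateral to SNI and 3 of sham DRG. Young rats, whose sex was not given, were 10 days old at surgery and 17 days old at collection, and gave 2 SNI, 2 contralateral and 3 sham arrays. Each array held a pool of ganglia from 3 adult or 4 young rats, so every error and p-value below measures the spread between pools.

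A sensory neuron that is cut in the periphery can grow its axon again, and it then makes large amounts of the proteins that build and steer the growth cone, the motile tip of the axon. Gap43, Basp1 and Marcks are phosphoproteins at the inner face of the membrane that act on the actin cortex, Stmn2 and Stmn4 are neuronal stathmins that bind tubulin dimers, Tubb2b and Tubb3 are beta-tubulins of neurons, and Dpysl3 (CRMP4) is a collapsin response mediator. Sprr1a is a small proline-rich protein of the cornified envelope of skin that is also made by axotomised sensory neurons. Many of these genes are active while axons first grow and decline as the nervous system matures.

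All values are log2 GC-RMA values, in which 1 unit is a 2-fold difference. Each gene is given by its Affy_ID with the highest mean, and no level was compared between genes. The sensory neuron markers were high in all arrays, with a mean over 11 genes between 12.53 and 13.03 in 15 of them. Young SNI replicate 2 stood apart, with 11.34 for these markers and a mean of 10.32 over 8 markers of central nervous tissue, which lay between 2.31 and 2.91 in every other array. For comparisons that use this array, values without it are given where they differ by over 1.5 times or change a call. Young SNI replicate 1 is then the sole young SNI array, and its spread is taken from the rest. Skeletal muscle markers varied within the groups, with a mean over 6 genes between 5.13 and 12.98. In bulk ganglia, fewer cells of a type and less RNA per cell cannot be told apart.

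In adult DRG, Gap43 and Tubb2b rose after SNI against sham, against the contralateral side and against both together, and Sprr1a rose against both together. Stmn4 was 2.52 higher on the log2 scale against both controls without passing the test across all arrays, and Stmn2, Tubb3, Basp1 and Marcks were higher by 0.41 to 0.62 without passing it. Dpysl3 differed by -0.12. In young DRG none of the 9 genes passed against either control. Among the controls, Gap43 and Tubb2b were lower in adult than in young sham DRG.

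Gap43, the growth-associated protein of the growth cone membrane and a substrate of protein kinase C, had 13.93, 14.04 and 13.93 in adult SNI DRG. It had 12.83, 12.98 and 12.80 on the adult contralateral side and 12.52, 12.95 and 12.79 in adult sham DRG. The 3 injured pools lay close together and above all 6 adult controls. The log2 difference, SNI minus control, was 1.21 ± 0.16 against sham (SE; adjusted p = 0.0103, limma with Benjamini-Hochberg over all Affy_IDs), 1.10 ± 0.16 against the contralateral side (adjusted p = 0.0106) and 1.16 ± 0.14 against the mean of both (adjusted p = 0.00269). The last is a 2.23-fold difference with a 95% interval of 0.85 to 1.46 on the log2 scale. Without adult SNI replicate 2 the limma adjusted p was 0.0563 against sham and 0.0542 against contralateral, and without contralateral replicate 1 or 3 it was 0.0633 or 0.056 against contralateral. Against both controls Gap43 passed without any single array (adjusted p at most 0.0215).

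In young DRG, Gap43 had 13.34 and 13.71 after SNI, 13.60 and 13.39 on the contralateral side, and 13.84, 14.03 and 13.41 after sham surgery. These groups overlapped, and the difference against both controls was -0.10 ± 0.16 (95% interval -0.46 to 0.26). It was -0.29 without young SNI replicate 2. Ordered by their means, the groups ran from adult SNI (13.97 ± 0.06, SD) through young sham (13.76 ± 0.32), young SNI (13.53 ± 0.26) and young contralateral (13.50 ± 0.15) to adult contralateral (12.87 ± 0.10) and adult sham (12.75 ± 0.22). Neighbours in this order overlapped, except that the lowest young array of the contralateral side (13.39) was above the highest of the adult contralateral side (12.98). Adult SNI DRG thus lay in and just above the range of the young arrays.

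Tubb2b, a beta-tubulin abundant in growing neurons, had 13.86, 13.99 and 14.04 in adult SNI DRG, against 13.06, 13.32 and 13.07 on the contralateral side and 12.94, 12.93 and 13.34 after sham surgery. All 3 injured pools were above all 6 controls. The difference was 0.89 ± 0.15 against sham (adjusted p = 0.0248 in limma), 0.81 ± 0.15 against contralateral (adjusted p = 0.0281) and 0.85 ± 0.13 against both (adjusted p = 0.0079), the last a 1.81-fold difference. With the replicate number as a block the limma adjusted p was 0.0749 against sham and 0.0775 against contralateral. Against both it was 0.0535 or 0.0509 when adult SNI replicate 2 or 3 was left out. The call against sham was lost without adult SNI replicate 2 or 3 or sham replicate 1 or 2 (limma adjusted p up to 0.117). That against contralateral was lost without adult SNI replicate 2 or 3 or any adult contralateral array (limma adjusted p up to 0.139). In young DRG Tubb2b had 13.71 and 13.69 after SNI, 13.95 and 13.72 contralaterally and 14.10, 14.03 and 13.58 after sham surgery. The young SNI arrays lay inside the range of the young controls, and the difference was -0.17 ± 0.15. Sequences of beta-tubulin genes are alike, and signal shared between them by the probes was not tested.

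**Figure D1:**
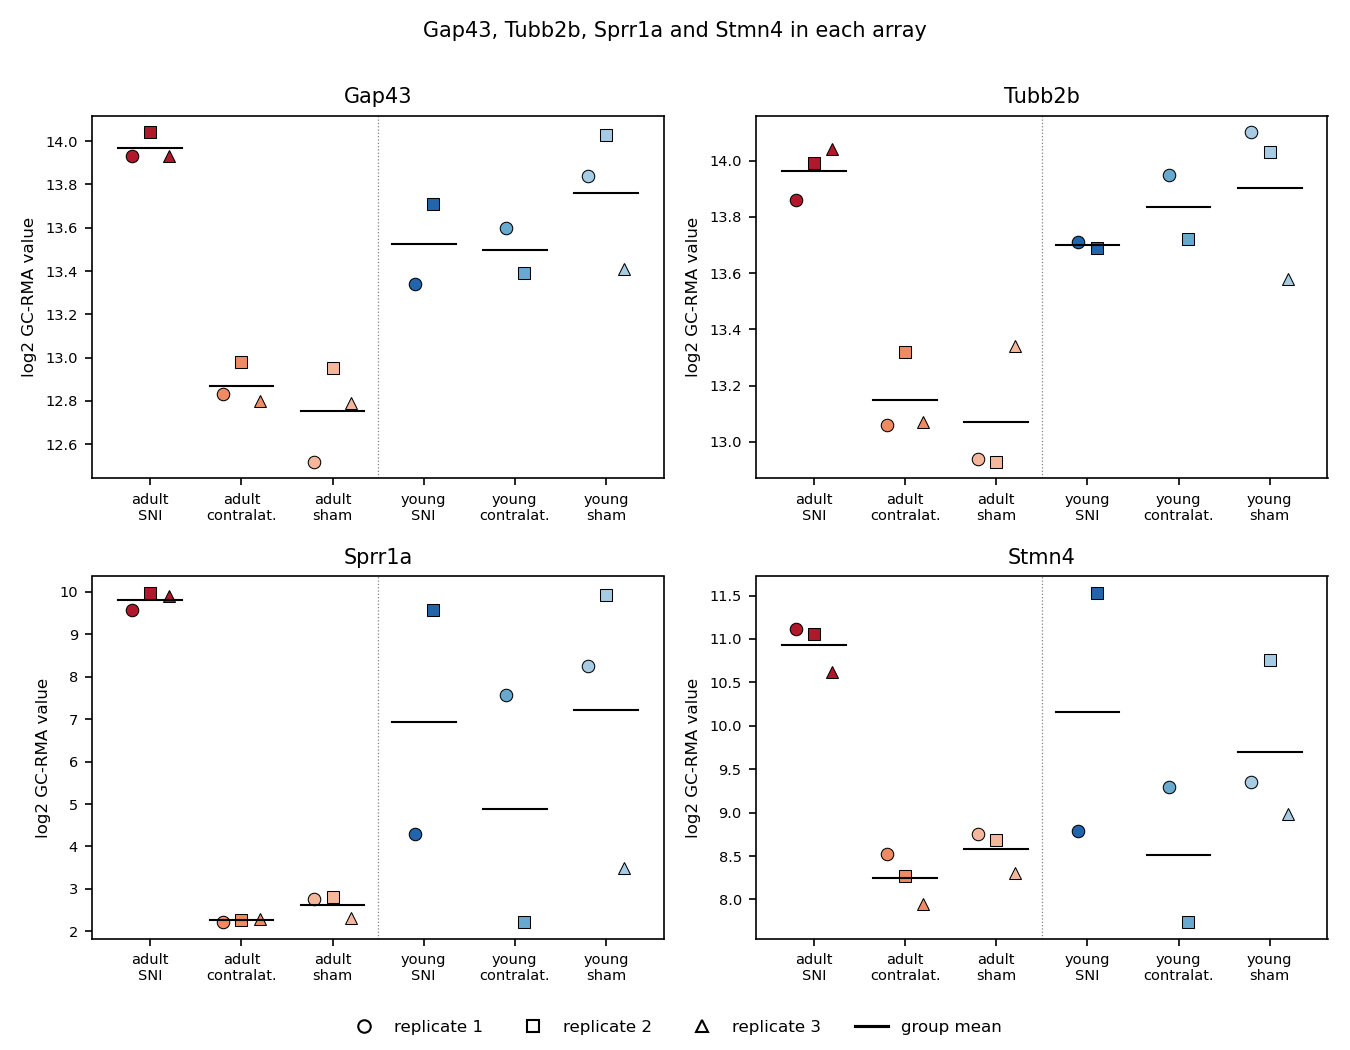
Log2 GC-RMA value (vertical axis) of Gap43, Tubb2b, Sprr1a and Stmn4 in each of the 16 arrays, by group (horizontal axis). Each symbol is 1 array, its shape gives the replicate number and the bar is the group mean. In each panel the 3 adult SNI arrays lie above the 6 adult control arrays, while the young groups overlap.

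Sprr1a, the cornified envelope protein named above, had 9.58, 9.97 and 9.89 in adult SNI DRG, against 2.22, 2.27 and 2.30 contralaterally and 2.76, 2.80 and 2.31 after sham surgery. It was above 84.2% to 86.8% of the Affy_IDs of the same array in adult SNI DRG and above 15.5% to 30.7% in the adult controls. The controls were thus near the lower end of the scale and the size of the difference is not exact there. It was 7.19 ± 1.73 against sham (adjusted p = 0.145 in limma), 7.55 ± 1.73 against contralateral (adjusted p = 0.0798) and 7.37 ± 1.5 against both (adjusted p = 0.0399). These standard errors carry the spread of the young arrays, since all 16 arrays share 1 estimate. With the adult arrays fitted on their own the standard error was 0.15 against sham and the limma adjusted p was 7.49e-06 against sham, 5.25e-06 against contralateral and 2.2e-06 against both. In the fit of all arrays the call against both controls was lost without any 1 of the 9 adult arrays or without young sham replicate 1 (adjusted p between 0.0623 and 0.162), the call against contralateral was gained without either young SNI array (adjusted p = 0.0445 each) or young sham replicate 3 (adjusted p = 0.0327), and the adjusted p against both was 0.0754 with the replicate number as a block.

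The start of Sprr1a is shown because this gene had the widest range of the 9 over the arrays, 7.75 log2 units. Its window of 250 bases before to 50 bases after the start, from RefSeq, lies on the minus strand of build GRCr8 at chr2:180752576-180752875. It is printed 5′ to 3′ with capitals for matches to TGAGTCA, the motif bound by AP-1 factors, and to TATAAA, the TATA box.
Sprr1a: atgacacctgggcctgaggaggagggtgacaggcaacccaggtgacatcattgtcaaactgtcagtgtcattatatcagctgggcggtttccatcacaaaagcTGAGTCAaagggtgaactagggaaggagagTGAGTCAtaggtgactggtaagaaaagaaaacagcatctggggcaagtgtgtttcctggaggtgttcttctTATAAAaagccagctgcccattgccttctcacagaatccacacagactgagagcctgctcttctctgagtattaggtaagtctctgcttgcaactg
Counted from the start of the gene, TGAGTCA was matched at 2 places, beginning at -147 and -117, and TATAAA at 1, beginning at -46. Both strands were searched, and the AP-1 and TATA letters do not overlap. Of all 33469 windows of the same length, 4.63% held TGAGTCA, 0.17% held it at 2 or more places, and 14.2% held TATAAA. Windows were given for 6 of the 9 genes, and those of Tubb2b, Tubb3, Basp1, Marcks and Dpysl3 held neither TGAGTCA nor TATAAA nor TGACGTCA, the cAMP response element, which 1.83% of all windows held. A match describes the letters of the sequence only.

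In young DRG, Sprr1a had 4.30 and 9.57 after SNI, 7.56 and 2.22 contralaterally, and 8.24, 9.92 and 3.50 after sham surgery. High and low arrays occurred in each of the 3 young groups. The groups are those of the labels, and whether each young array carries the right label could not be settled here, which bears on every comparison with a young group. The SD within groups was 3.55 in young and 0.20 in adult DRG. The difference of young SNI from both controls was 0.88 ± 1.78 (95% interval -3.04 to 4.80), and without young SNI replicate 2 it was -1.76. This error and interval share the small spread of the adult arrays. With the young arrays fitted on their own the standard error was 2.62 for Sprr1a, 0.96 for Stmn4 and 0.20 for Gap43, above that of the shared fit. For Basp1, Marcks and Dpysl3 it was 0.28, 0.11 and 0.30, below that of the shared fit.

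Stmn4 (RB3), a stathmin of the nervous system, had 11.11, 11.06 and 10.62 in adult SNI DRG, against 8.52, 8.27 and 7.95 contralaterally and 8.75, 8.68 and 8.31 after sham surgery. The lowest injured pool was well above the highest control. The difference was 2.35 ± 0.65 against sham (adjusted p = 0.239 in limma), 2.68 ± 0.65 against contralateral (adjusted p = 0.103) and 2.52 ± 0.56 against both (adjusted p = 0.0624). With the adult arrays on their own it passed in all 3 comparisons, with a limma adjusted p of 0.00252 against sham, 0.00118 against contralateral and 0.000617 against both. In the fit of all arrays it passed against both without either young SNI array (adjusted p = 0.0127 each) or young sham replicate 2 (adjusted p = 0.0444). In young DRG it had 8.79 and 11.53 after SNI, 9.29 and 7.74 contralaterally and 9.35, 10.76 and 8.98 after sham surgery. The SD within groups was 1.30 in young and 0.26 in adult DRG, and the young difference against both controls was 1.05 ± 0.67. It was -0.32 without young SNI replicate 2, and 2.42 with a limma adjusted p of 0.0294 without young SNI replicate 1, when replicate 2, with its central nervous tissue markers, was the remaining SNI array and 12.5% of all Affy_IDs passed.

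Sprr1a ran in the same order as Atf3, a transcription factor that is switched on in neurons by axotomy, in the 7 young arrays. Atf3 had 7.77 and 10.17 in young SNI DRG, 9.06 and 4.87 on the young contralateral side, and 9.49, 11.00 and 7.75 in young sham DRG. From highest to lowest, both genes ran sham 2, SNI 2, sham 1, contralateral 1, SNI 1, sham 3, contralateral 2. Stmn4 had its highest value in SNI 2 and its second in sham 2, and its lowest also in contralateral 2. In adult DRG Atf3 had 11.60, 11.81 and 11.72 after SNI, 6.43, 6.77 and 5.70 contralaterally and 5.91, 7.27 and 7.12 after sham surgery, so the adult control arrays were low in Atf3 as in Sprr1a. The markers of keratinocytes, which make Sprr1a in skin, had a mean over 5 genes of 2.99 to 3.27 in all 16 arrays. The other measured Sprr genes, Sprr1b, Sprr2d and Sprr3, lay between 1.86 and 2.56 in every array.

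**Figure D2:**
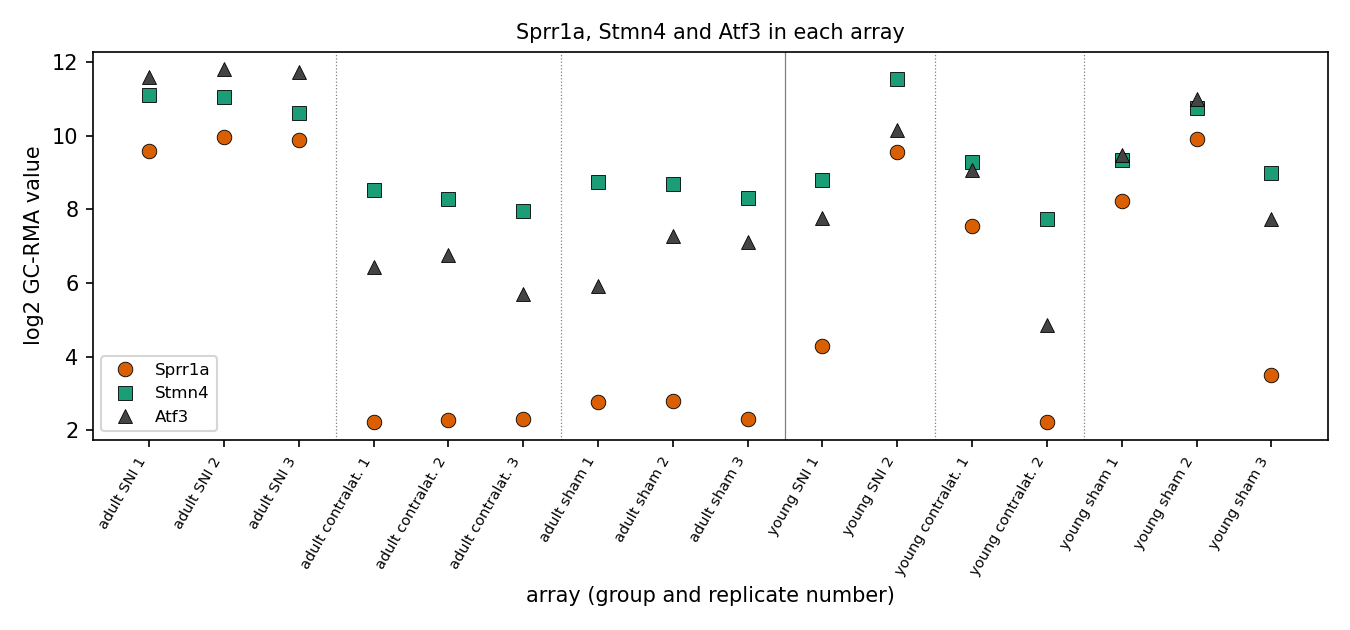
Log2 GC-RMA value (vertical axis) of Sprr1a, Stmn4 and Atf3 in each array (horizontal axis, by group and replicate number). Each symbol is 1 gene in 1 array, and heights are to be read within a gene. Sprr1a lies between 2.22 and 2.80 in the adult controls and between 2.22 and 9.92 in the young controls, and the young arrays have the same order in Sprr1a and Atf3.

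Stmn2 (SCG10), the stathmin of growth cones, was near the top of the scale in all groups. It had 14.91, 15.28 and 15.08 in adult SNI DRG, against 14.48, 14.89 and 14.43 contralaterally and 14.76, 14.51 and 14.71 after sham surgery. The lowest injured pool exceeded the highest control by the narrowest margin of the 5 genes whose adult groups did not overlap. The difference from both controls was 0.46 ± 0.15 (adjusted p = 0.267 in limma). A second Affy_ID of Stmn2 gave 0.33 ± 0.11, with 14.85 in the lowest injured pool and in the highest control. In young DRG Stmn2 had 14.74 and 14.24 after SNI, 14.95 and 14.75 contralaterally and 14.95, 14.95 and 14.48 after sham surgery, a difference of -0.33 ± 0.18 from both controls that was -0.082 without young SNI replicate 2.

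Tubb3, the beta-tubulin used as a marker of neurons, had 13.87, 14.30 and 14.34 in adult SNI DRG, against 13.43, 13.91 and 13.65 contralaterally and 13.64, 13.69 and 13.74 after sham surgery. Only contralateral replicate 2 of the 6 controls reached the lowest injured pool. The difference from both controls was 0.49 ± 0.16 (adjusted p = 0.23 in limma). In young DRG it had 13.65 and 13.11 after SNI, 13.74 and 13.60 contralaterally and 13.78, 13.97 and 13.47 after sham surgery, a difference of -0.33 ± 0.19 from both controls that was -0.06 without young SNI replicate 2. That array had the lowest Tubb3 and the lowest Stmn2 of all 16 arrays, and the lowest mean of the sensory neuron markers.

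Basp1 (CAP-23), which like Gap43 binds calmodulin and membrane lipids, had 10.47, 11.51 and 10.92 in adult SNI DRG, against 10.07, 10.64 and 9.86 contralaterally and 10.46, 10.57 and 10.50 after sham surgery. The groups overlapped, with a difference of 0.62 ± 0.25 from both controls (adjusted p = 0.416 in limma). Marcks, a substrate of protein kinase C that sequesters membrane phosphoinositides, had 11.91, 12.25 and 12.17 after adult SNI, against 11.72, 12.01 and 11.38 contralaterally and 11.22, 11.62 and 12.26 after sham surgery. These overlapped as well, and the difference was 0.41 ± 0.20 (adjusted p = 0.559). Dpysl3 had 8.45, 9.53 and 7.92 after adult SNI, against 8.90, 9.16 and 8.57 contralaterally and 8.67, 8.83 and 8.37 after sham surgery. Its injured pools held both the highest and the lowest adult values, and its difference was -0.12 ± 0.32 (95% interval -0.82 to 0.58).

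In young DRG, Basp1 had 11.07 and 11.03 after SNI, 11.43 and 10.79 contralaterally and 11.06, 11.57 and 10.75 after sham surgery. Marcks had 12.92 and 12.81 after SNI, 12.91 and 12.57 contralaterally and 12.91, 12.90 and 12.78 after sham surgery. Both genes overlapped between the young groups, with differences from both controls of -0.07 ± 0.30 for Basp1 and 0.06 ± 0.24 for Marcks, and Marcks had 0.12 without young SNI replicate 2.

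**Figure D3:**
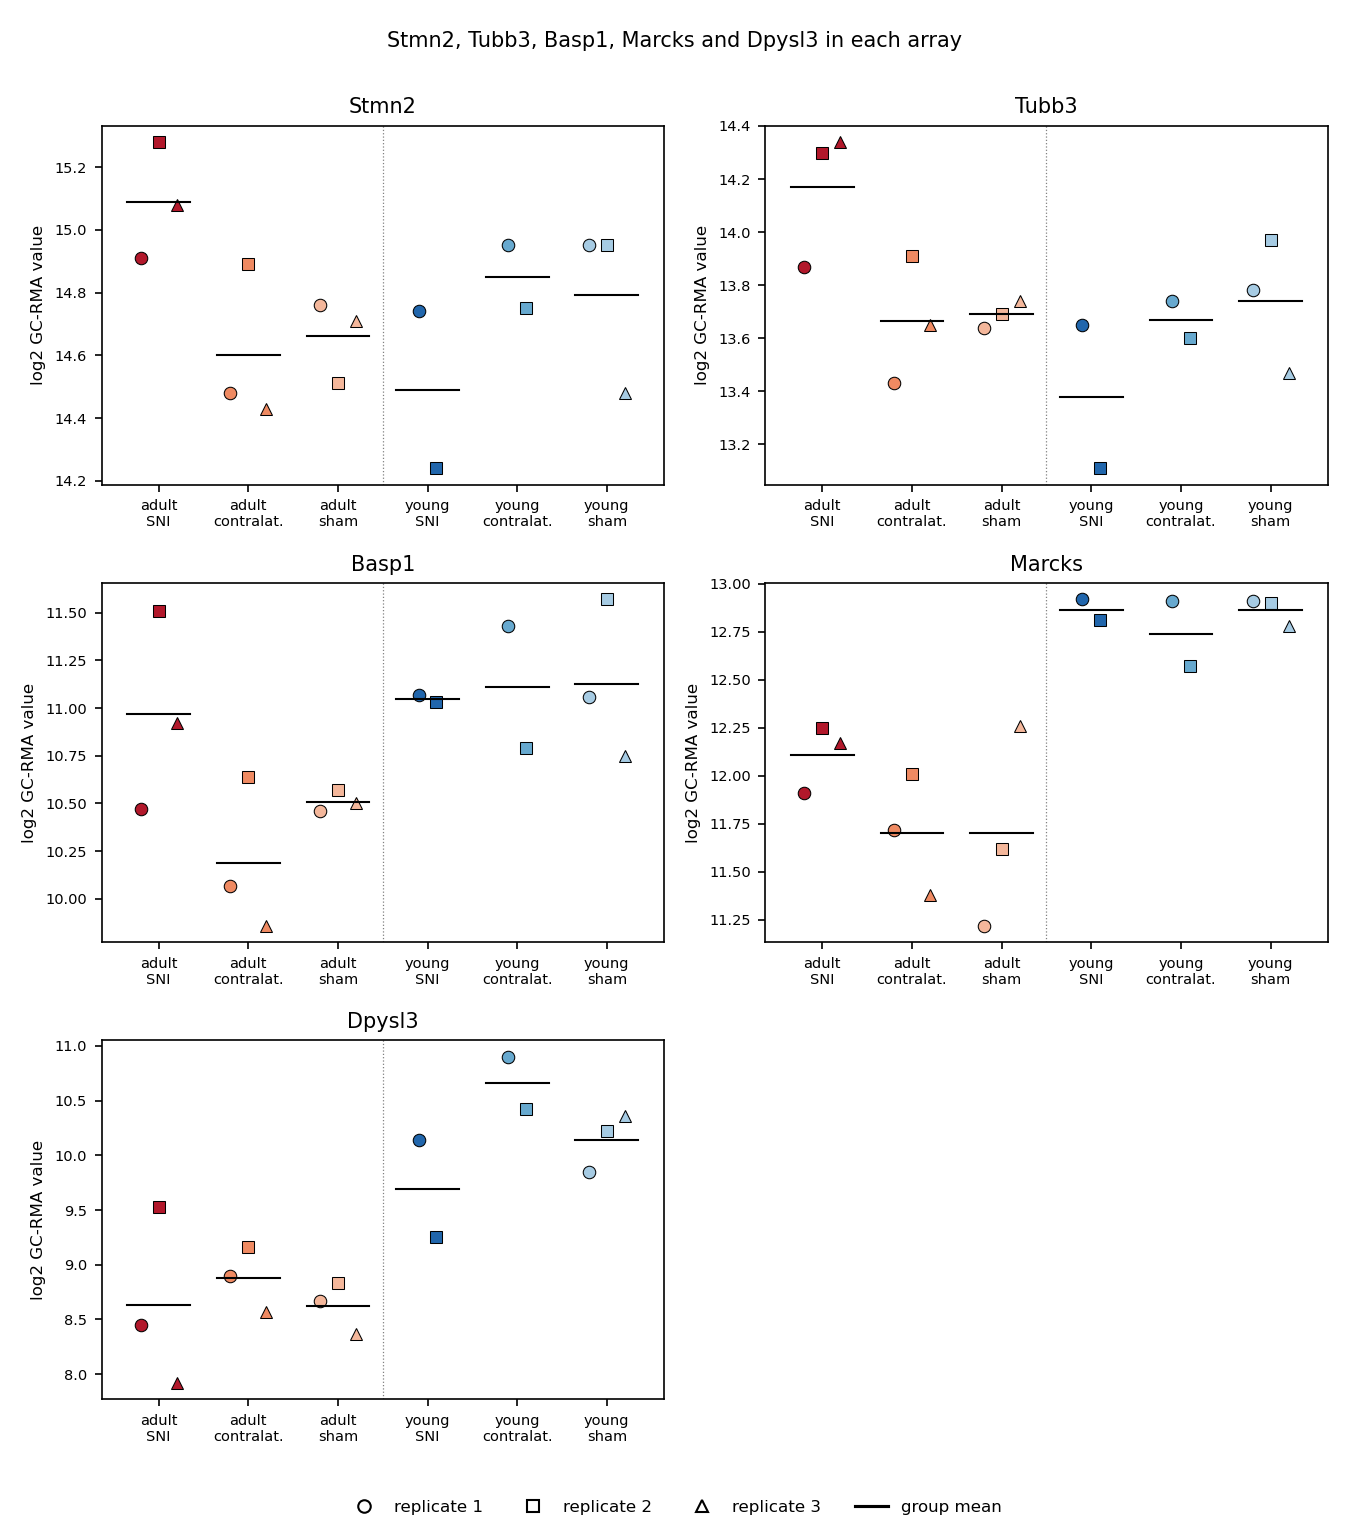
Log2 GC-RMA value (vertical axis) of Stmn2, Tubb3, Basp1, Marcks and Dpysl3 in each of the 16 arrays, by group (horizontal axis). Each symbol is 1 array, its shape gives the replicate number and the bar is the group mean. Basp1, Marcks and Dpysl3 lie lower in the adult than in the young control arrays, and Tubb3 and Stmn2 are lowest in young SNI replicate 2.

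Over the 19 Affy_IDs of the 9 genes, 2 passed as higher after adult SNI against sham (0.480% of all Affy_IDs passed in either direction), 2 against contralateral (1.03%) and 3 against both (1.28%), and 0 were lower. These 3 comparisons share the injured arrays. With adults fitted on their own, 4 passed in each, which were Gap43, Sprr1a, Stmn4 and Tubb2b, where 0.786%, 1.21% and 1.54% of all Affy_IDs passed against sham, contralateral and both. The median difference of the 9 genes from both controls was 0.62, and that of all Affy_IDs was -0.03. In 5 of the 19 Affy_IDs every adult SNI array was above every adult control array (3.17% of all Affy_IDs), namely those of Gap43, Sprr1a, Stmn2, Stmn4 and Tubb2b. The 9 genes were chosen with earlier results of these data known. Their counts and medians beside those of all Affy_IDs are thus descriptions and no test of the set. Contralateral and sham DRG differed in none of the 19 at the limma threshold, where 0% of all Affy_IDs passed at either age. At an unadjusted limma p under 0.05 the count over the 19 was 0 at both ages. The share of all Affy_IDs at that level was not counted.

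The mean of the macrophage markers was higher after adult SNI, which is a description without a test. Over 6 genes it was 5.40 to 5.94 after SNI against 4.15 to 4.94 in the adult controls. In SNI DRG 3 of the 6 were above all controls, as were 3.17% of all Affy_IDs. The mean of the 11 sensory neuron markers was 12.53 to 12.84 after SNI against 12.67 to 13.03 in the controls. Below all controls were 3 of the 11, and the share of all Affy_IDs with that order was not counted. The part of these shifts in the values of the 9 genes was not tested.

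Among young rats, 0 of the 19 Affy_IDs passed against sham (0.0161% of all Affy_IDs), contralateral (0.00966%) or both (0.0226%) in limma. An unadjusted limma p under 0.05 was found for 0 of the 19, with no share of all Affy_IDs counted at that level. None of the 19 had both young SNI arrays above all 5 young controls (1.08% of all Affy_IDs). The median difference of the 9 genes from both controls was -0.10, and it was -0.16 without young SNI replicate 2. Dpysl3 had the lowest difference of the 9 at -0.71 ± 0.38, with 10.14 and 9.25 after SNI, against 10.90 and 10.42 contralaterally and 9.85, 10.22 and 10.36 after sham surgery. Without young SNI replicate 2 it was -0.26. In the fit of all arrays the 95% interval was -0.51 to 0.17 for Tubb2b and -0.42 to 2.53 for Stmn4. Their standard errors there, 0.15 and 0.67, were below the 0.17 and 0.96 of the young arrays fitted on their own.

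**Figure D4:**
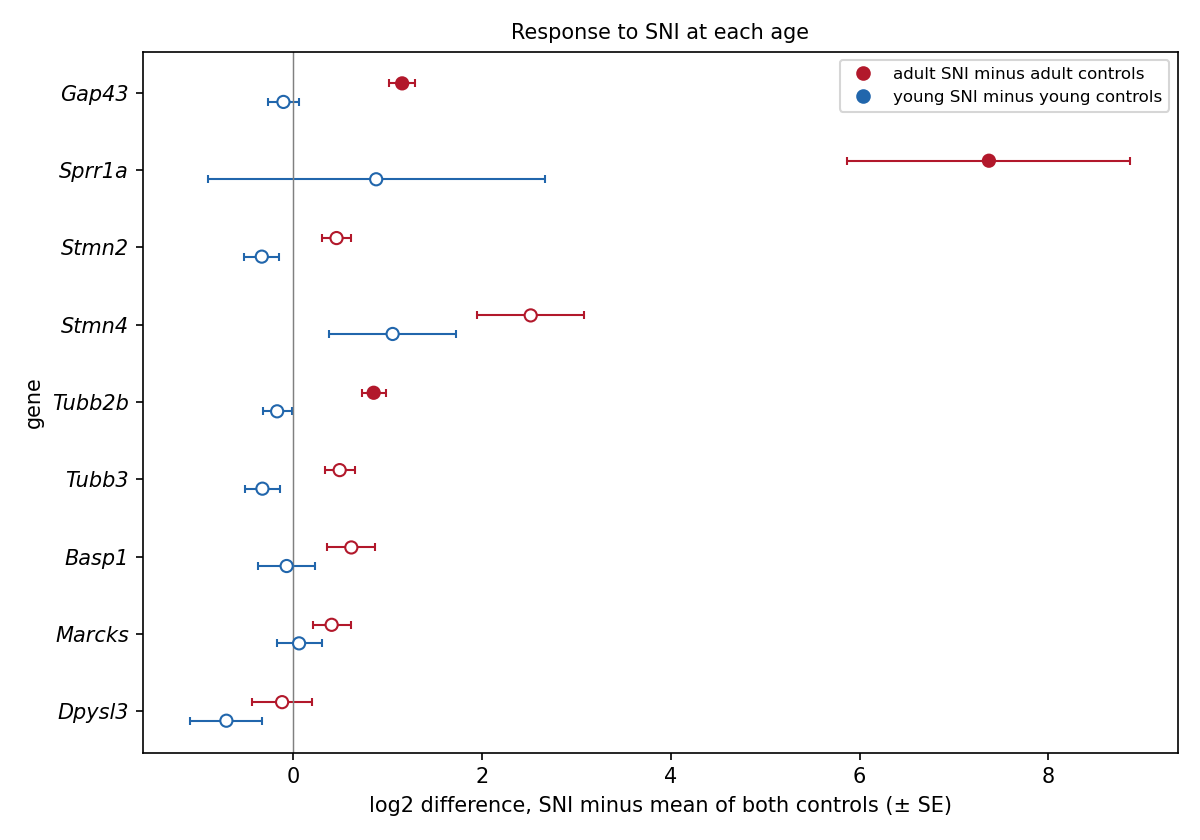
Log2 difference of SNI from the mean of sham and contralateral DRG (horizontal axis) for each of the 9 genes (vertical axis), in adult rats (red) and young rats (blue). Bars are SE, and filled symbols passed at an adjusted p of 0.05 in limma. Gap43, Sprr1a and Tubb2b are filled in adults, at 1.16, 7.37 and 0.85, and 0 genes are filled in young rats.

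To compare the ages directly, the difference of SNI from both controls in young DRG was subtracted from that in adult DRG within the same fit. It was above 0 for all 9 genes, with a median of 0.82 against -0.03 over all Affy_IDs, and 0 of the 19 passed (0.0966% of all Affy_IDs). An unadjusted limma p under 0.05 was found for 6 of the 19, and the share of all Affy_IDs at that level was not counted. Gap43 came nearest at 1.26 ± 0.21 (adjusted p = 0.0783 in limma), followed by Tubb2b at 1.02 ± 0.20 (adjusted p = 0.107). Sprr1a had 6.49 ± 2.33 (adjusted p = 0.557), Tubb3 0.82 ± 0.24 (adjusted p = 0.42) and Stmn2 0.79 ± 0.24 (adjusted p = 0.437). For Gap43 the call changed with single young arrays, since the limma adjusted p was 0.0457 without SNI replicate 2, 0.0194 without SNI replicate 1 and 0.0135 without sham replicate 3. Without young SNI replicate 2 the differences of Tubb2b, Sprr1a, Tubb3 and Stmn2 were 1.01, 9.12, 0.55 and 0.54, and none of these passed. Without young SNI replicate 1, which leaves the array with central nervous tissue markers, Gap43, Tubb2b, Tubb3 and Stmn2 passed where 9.96% of all Affy_IDs did. With all arrays kept, the limma adjusted p of Gap43 for this difference was 0.0482 with replicate number and age together as a block.

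Gap43 was lower in adult than in young sham DRG by -1.01 ± 0.16 (adjusted p = 0.0185 in limma) and Tubb2b by -0.83 ± 0.15 (adjusted p = 0.0348), and these 2 were the Affy_IDs of the 19 that passed (0.622% of all Affy_IDs). Marcks at -1.16 ± 0.23 (adjusted p = 0.0537) and Dpysl3 at -1.52 ± 0.37 (adjusted p = 0.0977) did not pass. Marcks passed without either young SNI array (adjusted p = 0.047 each) and Dpysl3 without adult SNI replicate 2 (adjusted p = 0.0413). Without adult sham replicate 3 Marcks passed (-1.44, adjusted p = 0.00762), and that array had the highest skeletal muscle marker mean of the adult arrays, 11.90, whose part was not tested. On the contralateral side the differences were -0.63 for Gap43, -0.69 for Tubb2b, -1.04 for Marcks and -1.78 for Dpysl3, and 0 of the 19 passed (0.177% of all Affy_IDs). An unadjusted limma p under 0.05 was found for 8 of the 19, with no share of all Affy_IDs counted at that level. The call of Gap43 in sham DRG was lost without adult sham replicate 1 (adjusted p = 0.0746), young sham replicate 1 (0.0635) or young sham replicate 2 (0.0525). That of Tubb2b was lost without any of 9 single arrays (adjusted p up to 0.118) and was 0.0659 with the replicate number as a block.

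Every adult control array was below every young control array for Gap43, Tubb2b, Basp1, Marcks and Dpysl3. For Marcks the 6 adult controls lay between 11.22 and 12.26, and the 5 young controls between 12.57 and 12.91. For Dpysl3 the adult controls lay between 8.37 and 9.16 and the young controls between 9.85 and 10.90. Counted over Affy_IDs of these genes, which were chosen with earlier results known, 8 of the 19 showed this order, 4 of them of Marcks, against 3.05% of all Affy_IDs. Tubb3 and Stmn2 did not, with sham differences of -0.05 ± 0.18 and -0.13 ± 0.18.

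In the SNI groups, 0 of the 19 Affy_IDs passed between adult and young DRG (2.64% of all Affy_IDs). An unadjusted limma p under 0.05 was found for 8 of the 19, with no share of all Affy_IDs counted at that level. Marcks and Dpysl3 were lower in adult SNI DRG by -0.76 ± 0.26 and -1.06 ± 0.41 (adjusted p = 0.147 and 0.19 in limma). Gap43 and Tubb3 were higher by 0.44 ± 0.18 and 0.79 ± 0.20 (adjusted p = 0.203 and 0.0655). Without young SNI replicate 2 the differences were -0.81 for Marcks, -1.51 for Dpysl3, 0.63 for Gap43 and 0.52 for Tubb3 (adjusted p = 0.506), and none passed. Tubb3 passed without adult SNI replicate 1 (0.94, adjusted p = 0.0383). Without young SNI replicate 1, which leaves replicate 2 with its central nervous tissue markers, the differences were 1.06 for Tubb3 (adjusted p = 0.00944), 0.26 for Gap43 and -0.62 for Dpysl3, and 17.1% of all Affy_IDs passed. Between the ages, the mean of the 11 sensory neuron markers was 12.67 to 13.03 in adult controls and 12.76 to 13.00 in young controls, and that of 5 Schwann cell markers was 12.02 to 12.83 in adult controls and 12.69 to 13.24 in young controls. Xist, a transcript of the inactive X chromosome of females, was 2.32 to 2.57 in the adult arrays and above 9.7 in 5 of the 7 young arrays. Age and the sex of the pools thus cannot be told apart fully. In young DRG Xist was 11.84 and 12.05 after SNI, 2.35 and 11.51 contralaterally, and 11.87, 2.36 and 9.77 after sham surgery. Sex was thus uneven between young SNI and its controls too, also between SNI 1 and contralateral 1. Its part in the young differences was not tested.

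**Figure D5:**
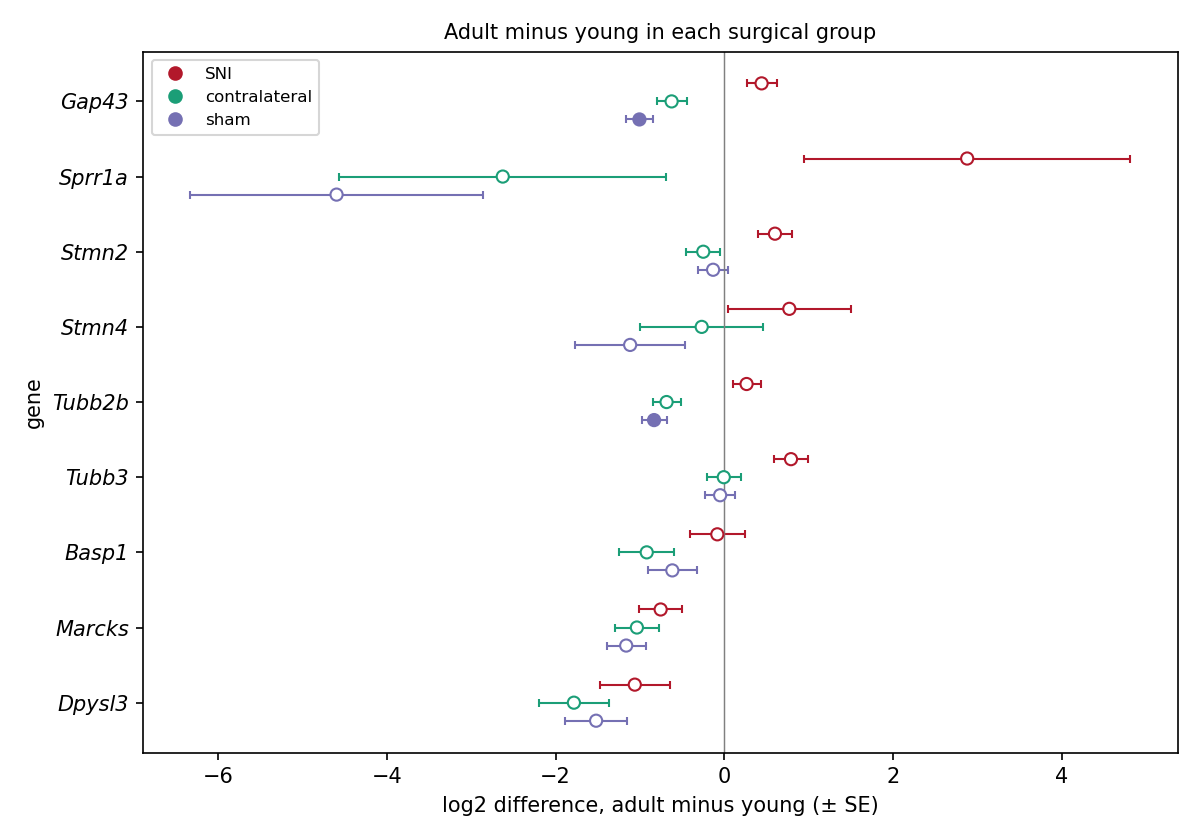
Log2 difference, adult minus young (horizontal axis), for each of the 9 genes (vertical axis) in SNI (red), contralateral (green) and sham DRG (purple). Bars are SE, and filled symbols passed at an adjusted p of 0.05 in limma. Gap43 and Tubb2b are filled in sham DRG at -1.01 and -0.83, and for each gene the SNI symbol lies to the right of the others.

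The 10 further Affy_IDs of these genes fell into 2 kinds. Those of Gap43, Tubb3, Basp1 and Dpysl3 and 1 of Marcks were at most 4.57 in all arrays, and they gave no difference that passed. The second Affy_ID of Stmn2 and 4 of Marcks had higher values. The 4 of Marcks differed between adult and young sham DRG by -1.09, -1.28, -1.58 and -2.00, with a limma adjusted p between 0.0975 and 0.341. In 1 of these 4, adult sham replicate 1 had 6.61 where the other adult controls had 9.72 to 11.00.

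Among 18 measured paralogs of the 9 genes, Tubb6, a widely expressed beta-tubulin, rose after adult SNI. It ranged from 9.92 to 10.80 after SNI, against 7.81 to 8.67 contralaterally and 8.70 to 9.60 after sham surgery, and the difference was 2.09 ± 0.38 against contralateral (adjusted p = 0.0278 in limma) and 1.70 ± 0.33 against both (adjusted p = 0.0325), while it was 1.31 ± 0.38 against sham (adjusted p = 0.28). With the replicate number as a block neither call was kept, the limma adjusted p being 0.0575 against contralateral and 0.0569 against both. The other tubulins, Stmn1, Stmn3, the Dpysl family and Marcksl1 did not pass after adult SNI, and the median of the 18 was 0.08 against both controls, where that of all Affy_IDs was -0.03. In sham DRG, Crmp1, a collapsin response mediator, was lower in adult than in young rats by -0.90 ± 0.15 (adjusted p = 0.0287 in limma). Tuba8, an alpha-tubulin, was higher there by 1.23 ± 0.19 (adjusted p = 0.0153). The adult and young means of Tuba8 were 6.07 and 6.115 contralaterally and 5.77 and 6.315 after SNI, so it was higher in adults in sham DRG only. Those of Crmp1 were 9.91 and 10.84 contralaterally and 10.37 and 10.595 after SNI.

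Of 32 further growth cone and axon growth genes, 2 rose after adult SNI against both controls and 0 fell, where 1.28% of all Affy_IDs passed. Flrt3, a leucine-rich repeat membrane protein with fibronectin domains, ranged from 10.91 to 11.58 after SNI, against 7.39 to 8.03 contralaterally and 8.16 to 8.37 after sham surgery. The difference was 3.34 ± 0.47 against both (adjusted p = 0.00598 in limma), 3.07 ± 0.55 against sham (adjusted p = 0.0365) and 3.60 ± 0.55 against contralateral (adjusted p = 0.0124). Against sham it was lost with the replicate number as a block (adjusted p = 0.0724). Chl1, a cell adhesion molecule of the L1 family, was higher by 1.11 ± 0.22 against both (adjusted p = 0.0391), which was lost in adults fitted on their own (adjusted p = 0.0524). The median of the 32 genes against both controls was 0.16 in adult DRG, beside -0.03 over all Affy_IDs. In young DRG it was -0.17, beside 0.0067 over all Affy_IDs, and 0 of the 32 passed. This young median includes young SNI replicate 2, with its central nervous tissue markers, and is not given without that array. In sham DRG, Evl, an actin regulator of the Ena/VASP family, was lower in adult than in young rats by -0.52 ± 0.07 (adjusted p = 0.0113), though not after the filter on low values (adjusted p = 0.0573).

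The genes with the most similar pattern were found by Pearson correlation over the 16 arrays, among Affy_IDs that varied by at least 1 log2 unit. The arrays share the same groups, so these are descriptions only. For Gap43 they included Cacna2d1, a calcium channel subunit that binds gabapentin (r = 0.970), the sodium channel subunit Scn3b (0.95), the kinase Tnik (0.947) and the proteoglycan syndecan-1, Sdc1 (0.946). Cacna2d1 ranged from 11.37 to 12.14 in adult SNI DRG, from 9.51 to 10.03 in the adult controls and from 10.42 to 11.92 in the young controls, with adult SNI and young arrays above the adult controls as for Gap43. For Sprr1a the 5 highest were Lce1f (0.990), the transglutaminase Tgm1 (0.976), the semaphorin Sema6a (0.973), the arginase Arg1 (0.972) and the cytokine Tslp (0.969). Tgm1 and Lce1f are, like Sprr1a, genes of the cornified envelope of skin. Lce1f ranged from 8.90 to 9.94 in adult SNI DRG, from 3.23 to 4.03 in the adult controls and from 3.47 to 9.87 in the young controls, and Tgm1 from 6.55 to 8.09, from 2.02 to 2.28 and from 2.11 to 7.72 in the same groups.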

How the data were processed

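The deposited values are log2 GC-RMA values, which the authors computed from 16 of 18 scanned arrays after removing 1 young SNI and 1 young contralateral array as outliers. Of 31099 Affy_IDs, 57 controls were left out. Gene symbols came from the platform annotation, in which 20826 Affy_IDs had 1 symbol. No reads were counted, and precision is limited by the number of pools.

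One model with a mean for each of the 6 groups was fitted to all arrays in limma 3.58.1 (R 4.3.3), with moderated variances whose prior had 1.24 degrees of freedom. Within each comparison, p-values were adjusted over 31042 Affy_IDs by the Benjamini-Hochberg method, and 0.05 was the threshold. Intervals are 95% intervals of that fit. Where a gene had several Affy_IDs, that of the highest mean stood for it, and the others are given beside it. From the paralog and growth cone lists, genes that passed were named, at most 6 per comparison, and for Gap43 and Sprr1a the 5 genes of highest correlation, of which 1 is not reported here. The genes and lists were chosen with earlier results of these data known.

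Deviations from the group means of same-numbered adult SNI and contralateral arrays correlated at 0.449, 0.445 and 0.362, so these numbers were taken as pairs from the data. The main fit did not use this pairing, and its standard errors and p-values treat the 2 sides as independent. Same-numbered adult SNI and sham arrays correlated at -0.041, 0.132 and 0.200, and contralateral and sham arrays at 0.057, 0.171 and 0.118. Fits with the replicate number as a block are given where they changed a call. In comparisons with sham DRG or between ages, equal numbers mark no known pair, so a call lost there is no result of pairing. Further alternatives were adults and young fitted apart, weights for arrays, quantile normalization, a variance prior with a trend on intensity or made robust, only those 18540 Affy_IDs that exceeded 4 in 2 arrays or more, and every array omitted singly. The code was tested on simulated data. The GC-RMA version is not given in the sources used here. Figures and promoter searches used Python 3.11.15 with pandas 2.3.3 and matplotlib 3.10.9.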

Additional observations from a re-analysis of the deposited data

How the results depend on the processing

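Counts are of the 19 Affy_IDs of the 9 genes that passed, and the percentage is that of all Affy_IDs that passed in the same fit. Adult SNI against contralateral had 2, but 4 with array weights (2.66%), with a filter on low values (2.28%) and in adults fitted on their own (1.21%), where Sprr1a and Stmn4 joined, and 1 with the replicate number as a block (0.644%), where Gap43 was kept. Adult SNI against sham had 2, but 4 in adults on their own (0.786%) and 1 with the block (0.325%). Adult against young SNI DRG had 0, but 2 with the filter (6.97%), 1 with an intensity trend (2.55%) and 3 with quantile normalization (3.06%). Adult against young contralateral DRG had 0, but 5 with array weights (2.58%) and 1 with quantile normalization (0.361%). The difference in response had 0, but 1 with quantile normalization (0.119%; Tubb2b, adjusted p = 0.0351) and 1 with the block within age (0.113%; Gap43). Adult against young sham DRG had 2, but 5 with the filter (1.74%) and 1 with the block (0.606%). For these moves the cause was not tested.

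Leaving out 1 array at a time, the counts were 0 to 2 against sham, 0 to 4 against contralateral and 1 to 4 against both in adult SNI, 0 to 1 in young SNI against contralateral and against both, 0 to 5 for the difference in response, 0 to 4 between ages in SNI and 0 to 5 in sham DRG. The highest counts for the response (5, with Gap43, Stmn2, Tubb2b and Tubb3) and in SNI came without young SNI replicate 1, when 9.96% and 17.1% of all Affy_IDs passed. The highest in sham DRG came without adult sham replicate 3 (1.4%), which had the highest Marcks value of the adult controls. The counts of contralateral against sham DRG stayed at 0. For adult SNI the lowest counts came where 0.129% of all Affy_IDs passed against sham and 0.184% to 0.306% against contralateral. Against both it was 0.454% or 0.625%. The young SNI counts were above 0 only without young SNI replicate 1, which leaves the array with central nervous tissue markers as the sole SNI array.

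Some young differences from both controls changed sign. Under quantile normalization Gap43 had 0.043 and Basp1 0.086, and with the block within age Sprr1a had -0.05. Leaving out 1 array gave -0.29 to 0.0825 for Gap43, -1.76 to 3.52 for Sprr1a, -0.32 to 2.42 for Stmn4, -0.23 to 0.092 for Basp1 and -0.022 to 0.15 for Marcks, and in adults -0.57 to 0.24 for Dpysl3. Calls of Tubb6, Chl1 and, against each control alone, Flrt3 were lost without single arrays (adjusted p up to 0.18), as were those of Crmp1 and Tuba8 (up to 0.0966). The young groups rest on 2 or 3 pools.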
